A study of Mus musculus with 12 samples.

Results

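The 33 genes described here belong to the ATF4 programme of amino acid supply. They comprise ATF4 and its partner and target regulators, the enzymes of serine, asparagine, proline and folate one-carbon metabolism, and the amino acid transporters that feed them. They were named by symbol from knowledge of the pathway, with earlier results of these data known. All 33 were found in the count table through their Ensembl identifiers, with 1 row each among 49315 genes. Shares of the members set beside shares of all genes therefore describe this list and do not test it. The count table comes from a coculture study of mouse group 2 innate lymphoid cells (ILC2s), lymphocytes without antigen receptors that make type 2 cytokines, and eosinophils, the granulocytes of type 2 immunity. Both were C57BL/6, and there were 12 libraries in 4 groups of 3. ILC2s with eosinophils and ILC2s alone came from lung, were freed of lineage-positive cells on magnetic beads and sorted, expanded in IL-33, IL-25, IL-2 and IL-7, and then held in IL-2 and IL-7 for 48 h. Eosinophils with ILC2s and eosinophils alone came from blood as cells not bound by B220 and CD90 beads, and had 24 h with IL-33 first. All 4 groups then spent 24 h in medium free of cytokines and were separated by flow cytometry. Every eosinophil group had therefore seen IL-33, and no group held ILC2s with eosinophils that had not. Animal age, sex and pooling are not stated in the labels, nor do they tie replicates to separate cultures, so p-values measure only the spread between these libraries.

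ATF4 is a basic leucine zipper transcription factor whose mRNA is translated when the initiation factor eIF2 is phosphorylated, as happens when uncharged tRNA accumulates or the endoplasmic reticulum is stressed, and mTORC1 also raises its translation. With partners such as C/EBP gamma it binds a composite element, named CARE, in genes of amino acid import and synthesis. The serine pathway makes serine from the glycolytic intermediate 3-phosphoglycerate, and the folate cycle then moves the serine carbon into purines, thymidylate and mitochondrial formate. Dividing lymphocytes are known to draw on both. Since ATF4 is set mainly by translation and the values here are RNA, they do not measure ATF4 protein.

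Values are CPM, a gene's counts scaled to the size of its library with TMM factors over all 12 libraries, and changes are log2 fold changes ± SE from edgeR's quasi-likelihood test with Benjamini-Hochberg adjustment over all genes tested. A gene was called at an adjusted p under 0.05. The smallest library held 16769929 counts and the largest 22928961, which puts 3 counts at 0.105 to 0.200 CPM. The correlation of log CPM between replicates was 0.986 to 0.993. By chi-square per degree of freedom on the counts, replicate 2 of eosinophils alone differed most from its group. It gave 13.9 against replicate 1 and 19.5 against replicate 3, which gave 6.74 against each other. Replicates of the other groups gave 2.57 to 6.11. ILC2s carried the ILC2 markers (3486 to 3777 CPM summed over 6 genes) and eosinophils the eosinophil markers (3469 to 4186 CPM over 6). RNA of the partner cell was low. The 6 eosinophil markers summed to 1.20 to 2.22 CPM in ILC2s with eosinophils and 1.34 to 1.58 CPM in ILC2s alone, with Ear2 at 0 counts in ILC2s with eosinophils. The 6 ILC2 markers summed to 5.97 to 6.69 CPM in eosinophils with ILC2s and 7.67 to 12.0 CPM in eosinophils alone. In bulk RNA of this kind, fewer cells of a type and less RNA per cell cannot be told apart.

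The CARE core was looked for in the promoters, since members that moved together could share it. RefSeq (build GRCm38.p6) gave windows from 250 bases before to 50 after the start for 28 of the 33 members. Those of Slc7a5, Slc1a5, Cth, Eif4ebp1 and Aldh1l2 were not used here. The core searched was TGATGNAA on either strand, where the reverse strand reads as its complement, and a match is a description and not a binding site. It stood in the windows of 8 of the 28 members (28.6%), against 4.51% of 27025 genes with a window. The members were listed for their place in the ATF4 programme, so this share describes the list. Besides the 6 below, Nupr1 and Got1 held a match. The 6 stretches run 5′ to 3′ on the gene's strand from 40 bases before the first match through the last match. Matches are in capitals, and they show the one pattern in genes that were not all called alike in the coculture comparisons:
Slc7a11 (chr3:50443653-50443719, minus strand): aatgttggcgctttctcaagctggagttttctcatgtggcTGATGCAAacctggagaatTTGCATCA
Asns (chr6:7693225-7693272, minus strand): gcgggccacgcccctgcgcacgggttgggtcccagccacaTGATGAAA
Pycr1 (chr11:120643844-120643891, minus strand): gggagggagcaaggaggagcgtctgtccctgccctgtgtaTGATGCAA
Slc1a4 (chr11:20332710-20332757, minus strand): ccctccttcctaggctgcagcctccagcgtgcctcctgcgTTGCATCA
Trib3 (chr2:152344039-152344086, minus strand): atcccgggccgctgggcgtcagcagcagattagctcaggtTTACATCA
Chac1 (chr2:119351009-119351056, plus strand): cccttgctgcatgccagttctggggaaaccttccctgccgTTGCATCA

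Slc7a11 had a match on each strand. In ILC2s with eosinophils, against ILC2s alone, Asns, Pycr1 and Slc1a4 rose, Trib3 did not pass the test and Slc7a11 was nearly absent, as given below. Stc2, Psat1, Mthfd2 and Phgdh, among the largest rises, had no match in the window, which says only that these letters were not in it.

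Setting ILC2s with eosinophils against ILC2s alone asked how the granulocytes' presence alters the lymphocytes. ILC2s with eosinophils held more RNA of 3 of the 4 serine and asparagine genes (Phgdh, Psat1 and Asns, not Psph), of the 5 folate one-carbon enzymes that could be tested, of the leucine transporter Slc7a5 and of Stc2, while the regulators split, with Atf4 and Nupr1 higher and Ddit3 lower. Of the 33 members 29 had enough counts to be tested, the others being Chac1, Cth, Slc7a11 and Aldh1l2. Of the 29, 22 were higher (75.9%) in ILC2s with eosinophils, where 36.8% of 14438 genes were higher, and 5 were lower (17.2%), where 35.6% of genes were lower. Beyond 2-fold, 13 members were higher, against 14.0% of all genes, and 1 was lower, Ddit3, against 9.89% of all genes. The median log2 fold change of the 29 was 0.98, and that of all genes tested 0.0029. Scaling by library totals in place of TMM lowered the log2 fold changes of this comparison by a median of 0.16.

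The regulators did not move as 1 group, with 2 higher, 3 lower and 1 not past the test. Atf4 RNA stood at 123, 116 and 116 CPM in the 3 libraries of ILC2s with eosinophils and 87.9, 79.4 and 90.3 CPM in those of ILC2s alone. Every library with eosinophils lay above every library alone, and the rise was small (log2 fold change 0.45 ± 0.046, edgeR adjusted p = 7.9e-10). Ddit3, which encodes the pro-apoptotic ATF4 partner CHOP, stood at 14.8, 15.5 and 15.4 CPM with eosinophils and 32.4, 33.7 and 31.0 CPM alone. The groups were apart in the other direction, and Ddit3 fell (-1.10 ± 0.075, edgeR adjusted p = 1.4e-13). Ddit3 lies on chromosome 10 (127290774 to 127296288, build mm10) and overlaps Mars, the methionyl-tRNA synthetase gene on the opposite strand, which rose (1.19 ± 0.067). Gm4189, which also overlaps it on the opposite strand, fell (-1.13 ± 0.42) at a low level, averaging 0.371 CPM with eosinophils and 0.809 CPM alone. The strand setting of the counts is not given in the sources used here. Trib3, a pseudokinase that restrains ATF4 output, stood at 2.21, 1.91 and 2.95 CPM with eosinophils and 2.35, 2.34 and 1.64 CPM alone. Those groups overlapped, and Trib3 was not called (0.17 ± 0.24, edgeR adjusted p = 0.532).

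Nupr1, a small stress-induced chromatin protein, stood at 4.34, 3.24 and 2.79 CPM in ILC2s with eosinophils and 0.431, 1.04 and 0.593 CPM in ILC2s alone. All 3 libraries with eosinophils were above those alone (2.32 ± 0.29, edgeR adjusted p = 4.2e-08), although the level stayed low. Atf5, a paralogue of ATF4 under similar translational control, fell to 13.1 ± 0.916 CPM with eosinophils, against 16.9 ± 1.01 CPM alone (SD, n = 3 each; -0.37 ± 0.092). It overlaps Nup62 on the opposite strand, which rose (0.86 ± 0.05). Cebpg, the C/EBP partner of ATF4, averaged 46.0 ± 1.00 CPM with eosinophils and 50.1 ± 2.36 CPM alone (-0.13 ± 0.055, edgeR adjusted p = 0.0359). That fall no longer passed when replicate 1 or 2 of either ILC2 group was left out (edgeR adjusted p = 0.0506 to 0.136), nor with DESeq2 (0.0551), with every gene kept (0.155) or with all 12 libraries fitted (0.0788).

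Among the feedback and sensing genes Stc2 changed most. Stc2, the gene of the secreted glycoprotein stanniocalcin 2 and an ATF4 target in stressed cells, lies on chromosome 11 (31357307 to 31370074, build mm10). It stood at 234, 238 and 266 CPM in ILC2s with eosinophils and 14.0, 14.6 and 13.0 CPM in ILC2s alone. No library of either group came near the other (4.14 ± 0.058, edgeR adjusted p = 7.7e-30). Eif4ebp1, the translational brake below mTORC1, rose to 45.6 ± 2.46 CPM with eosinophils, against 28.4 ± 0.884 CPM alone (0.67 ± 0.062). Sesn2, a leucine sensor that restrains mTORC1, rose to 16.8 ± 0.280 CPM, against 13.9 ± 0.354 CPM alone (0.26 ± 0.087, edgeR adjusted p = 0.00850), which did not pass with library totals (0.274). Xpot, the nuclear exporter of tRNA, averaged 70.3 ± 4.76 CPM with eosinophils and 64.1 ± 3.22 CPM alone (0.12 ± 0.054, edgeR adjusted p = 0.0411). With library totals its log2 fold change was -0.033, and without replicate 1 or 2 of either ILC2 group the adjusted p was 0.0719 to 0.205. It also missed the threshold with upper quartile scaling (0.351), DESeq2 (0.0852), limma-voom (0.0504), a filter of 1 CPM in 3 libraries (0.0554) and all 12 libraries (0.154). Chac1, a glutathione-degrading enzyme and a sensitive ATF4 target, had too few counts for the test. It had 6, 8 and 10 counts with eosinophils and 0, 0 and 1 alone, a ratio of 24.4 with a 95% counting interval of 3.98 to 1005.

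**Figure D1:**
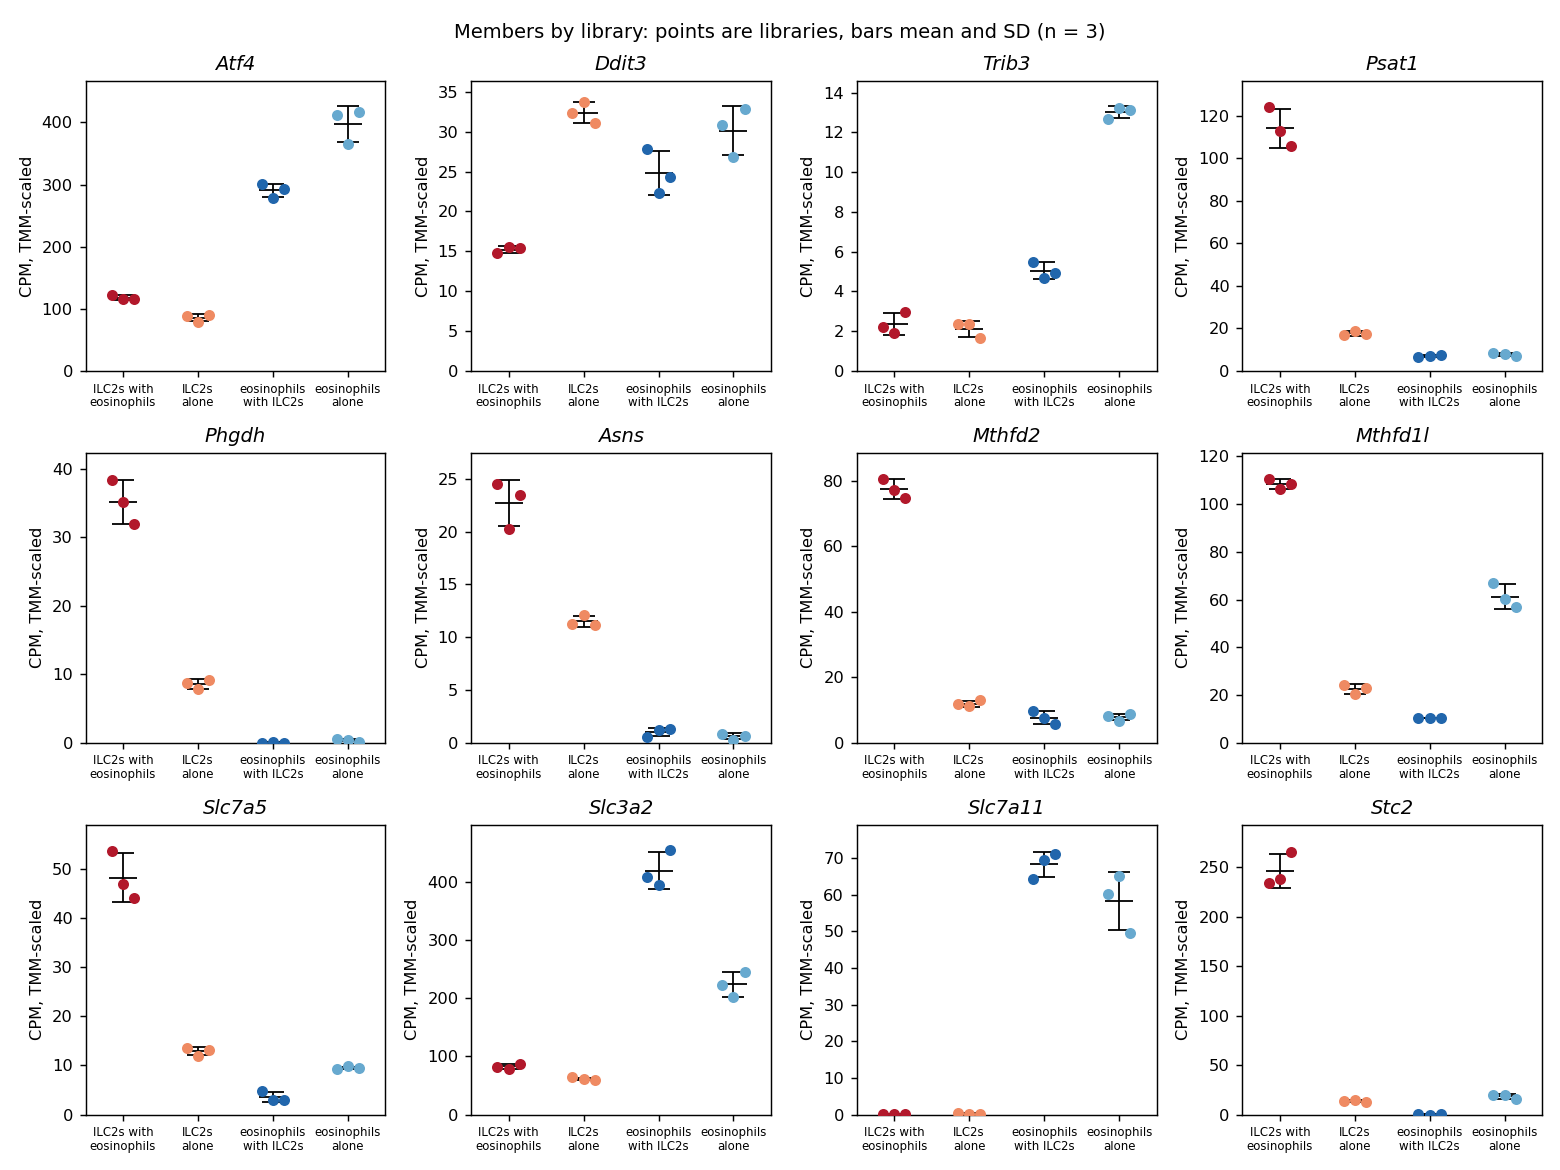
Levels of 12 members in each library, in TMM-scaled CPM on linear axes from 0, with groups from left to right ILC2s with eosinophils, ILC2s alone, eosinophils with ILC2s and eosinophils alone. Points are libraries and bars the mean and SD (n = 3). Psat1, Phgdh, Mthfd2, Slc7a5 and Stc2 were highest in ILC2s with eosinophils, and Atf4, Trib3, Slc3a2 and Slc7a11 stood higher in both eosinophil groups than in both ILC2 groups.

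Of the serine pathway, the enzymes of its entry rose and the enzyme of its exit did not pass the test. Phgdh, which commits 3-phosphoglycerate to serine, stood at 38.4, 35.2 and 31.9 CPM in ILC2s with eosinophils and 8.68, 7.83 and 9.24 CPM in ILC2s alone. The groups were far apart (2.02 ± 0.09, edgeR adjusted p = 5.7e-18). Psat1, the transaminase that follows, stood at 124, 113 and 106 CPM with eosinophils and 16.7, 19.0 and 17.5 CPM alone. Its groups too were far apart (2.68 ± 0.063, edgeR adjusted p = 1.3e-24). Psph, the phosphatase that releases serine, averaged 15.4 ± 1.03 CPM with eosinophils and 15.6 ± 1.51 CPM alone (-0.03 ± 0.093, edgeR adjusted p = 0.776). Psph overlaps Cct6a on the opposite strand, which rose (1.34 ± 0.042). Asns, which makes asparagine from aspartate and glutamine, stood at 24.5, 20.3 and 23.5 CPM with eosinophils and 11.3, 12.1 and 11.2 CPM alone. The lowest library with eosinophils was well above the highest alone (0.98 ± 0.091, edgeR adjusted p = 1.2e-10).

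The one-carbon enzymes that could be tested all 5 rose, and the mitochondrial ones Mthfd2 and Mthfd1l rose most. Mthfd2, which oxidises methylene-tetrahydrofolate in the mitochondrion, stood at 80.6, 77.2 and 74.8 CPM in ILC2s with eosinophils and 11.8, 11.1 and 13.0 CPM in ILC2s alone. The groups did not overlap (2.68 ± 0.066, edgeR adjusted p = 3.5e-24). Mthfd1l, which releases formate from the mitochondrion, stood at 111, 106 and 109 CPM with eosinophils and 24.4, 20.5 and 22.9 CPM alone. It too was clear of overlap (2.26 ± 0.056, edgeR adjusted p = 4.1e-24). Shmt2, the mitochondrial enzyme that takes the carbon from serine, rose to 80.9 ± 5.91 CPM, against 37.3 ± 1.24 CPM alone (1.11 ± 0.056). Its cytosolic counterparts rose also, Mthfd1 to 53.7 ± 6.07 CPM, against 16.5 ± 0.538 CPM alone (1.70 ± 0.075), and Shmt1 to 12.0 ± 1.61 CPM, against 6.10 ± 0.839 CPM alone (0.98 ± 0.13). Shmt1 overlaps Smcr8 on the opposite strand, which fell (-0.22 ± 0.047). Aldh1l2, the mitochondrial enzyme that oxidises formyl-tetrahydrofolate, was close to absent, with 6, 8 and 8 counts with eosinophils and 7, 10 and 10 alone, and was not tested.

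All 4 tested genes of proline synthesis and of the transaminases rose. Pycr1, the mitochondrial enzyme that completes proline, stood at 2.08, 2.30 and 2.09 CPM in ILC2s with eosinophils and 0.0479, 0.36 and 0.209 CPM in ILC2s alone. It had 1, 8 and 6 counts alone, so the size of its rise is imprecise (3.33 ± 0.41, edgeR adjusted p = 2.6e-08). Gpt2, the mitochondrial alanine transaminase, stood at 8.84, 6.78 and 7.55 CPM with eosinophils and 1.68, 2.16 and 1.88 CPM alone. The groups were apart (2.01 ± 0.17, edgeR adjusted p = 1.7e-11). Got1, the cytosolic aspartate transaminase, rose to 36.7 ± 1.58 CPM, against 19.7 ± 0.946 CPM alone (0.89 ± 0.071). Aldh18a1, which starts proline synthesis from glutamate, rose less, to 58.7 ± 1.54 CPM, against 45.4 ± 3.48 CPM alone (0.36 ± 0.056). Cth, the cystathionine lyase that yields cysteine, had 11 counts in the 3 libraries with eosinophils and 4 in the 3 alone, a ratio of 2.80 with a 95% counting interval of 0.830 to 12.1, and was not tested.

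The transporters split, with 4 of the 6 tested higher and 2 lower. Slc7a5, the leucine and large neutral amino acid exchanger LAT1, stood at 53.6, 46.9 and 44.0 CPM in ILC2s with eosinophils and 13.5, 11.9 and 13.1 CPM in ILC2s alone. The groups lay far apart (1.90 ± 0.08, edgeR adjusted p = 1.3e-18). Its partner Slc3a2, the heavy chain that carries LAT1 to the membrane, stood at 82.7, 79.1 and 87.5 CPM with eosinophils and 64.0, 61.1 and 59.9 CPM alone. Its rise was smaller but without overlap (0.42 ± 0.049, edgeR adjusted p = 7.8e-09). Slc1a4, a serine and alanine carrier, stood at 3.10, 3.72 and 3.81 CPM with eosinophils and 1.15, 0.585 and 0.593 CPM alone, low throughout and higher in each library with eosinophils (2.21 ± 0.27, edgeR adjusted p = 2.7e-08). Slc7a1, the arginine and lysine carrier, rose to 70.8 ± 9.22 CPM, against 32.1 ± 0.973 CPM alone (1.13 ± 0.07).

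The falls among the transporters were in the glutamine carriers. Slc1a5 (ASCT2) fell to 145 ± 8.96 CPM in ILC2s with eosinophils, against 166 ± 3.53 CPM in ILC2s alone (-0.20 ± 0.043, edgeR adjusted p = 1.0e-04). Slc38a2 (SNAT2) fell to 98.1 ± 4.57 CPM, against 119.8 ± 5.16 CPM alone (-0.30 ± 0.045, edgeR adjusted p = 9.0e-07). Slc7a11, the cystine and glutamate exchanger xCT, had 4, 4 and 1 counts with eosinophils and 9, 5 and 1 alone and was not tested. Its level in ILC2s with eosinophils was 0.190% of that in eosinophils with ILC2s. The 6 eosinophil markers there ranged from 0% to 0.283% of the eosinophil level, with a median of 0.0276%. The top was Epx, on 3 counts in ILC2s with eosinophils. The source of these few Slc7a11 counts was not tested.

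The ILC2 libraries also differed in markers of other cells. Erythroid markers summed to 13.5 to 17.6 CPM with eosinophils and 0.959 to 1.53 CPM alone over 4 genes, nearly all from Hba-a1, with Hbb-bs at 0 counts in both groups. Basophil and mast cell markers summed to 50.8 to 62.3 CPM with eosinophils and 130.3 to 141.6 CPM alone over 7 genes, with Kit supplying most and 6 of 7 under 1 CPM in both groups. B cell markers summed to 51.9 to 59.4 CPM with eosinophils and 126.1 to 138.4 CPM alone over 5 genes, mostly Ighm, with Ms4a1 at 0 counts with eosinophils and under 1 CPM alone. Neutrophil markers summed to 1.20 to 4.21 CPM with eosinophils and 0.0349 to 0.225 CPM alone over 7 genes, with S100a8 and S100a9 at 0 counts in both. With eosinophils the sum was nearly all Mpo (mean 2.42 CPM, against 0.0416 CPM alone), while Ngp averaged 0.0137 CPM with eosinophils and 0.0620 CPM alone. Epithelial markers summed to 4.57 to 6.52 CPM with eosinophils and 10.4 to 12.3 CPM alone over 5 genes, with Cdh1 lower in every library with eosinophils (mean 0.846 CPM, against 7.33 CPM alone) and Sftpc at 0 counts in both. T cell markers summed to 82.3 to 90.6 CPM with eosinophils and 74.0 to 79.4 CPM alone over 6 genes, with Cd8a under 1 CPM with eosinophils and at 0 counts alone. Cd3g supplied most of the sum (mean 81.1 CPM with eosinophils and 69.2 CPM alone). Cd3d and Cd3g were higher in every library with eosinophils and Cd3e lower in every one. Trac averaged 1.11 CPM with eosinophils and 1.75 CPM alone. Monocyte and macrophage markers, all 7 under 1 CPM in both groups, summed to 1.33 to 1.64 CPM with eosinophils and 0.942 to 1.26 CPM alone. The part of such cells in the members' changes was not tested.

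**Figure D2:**
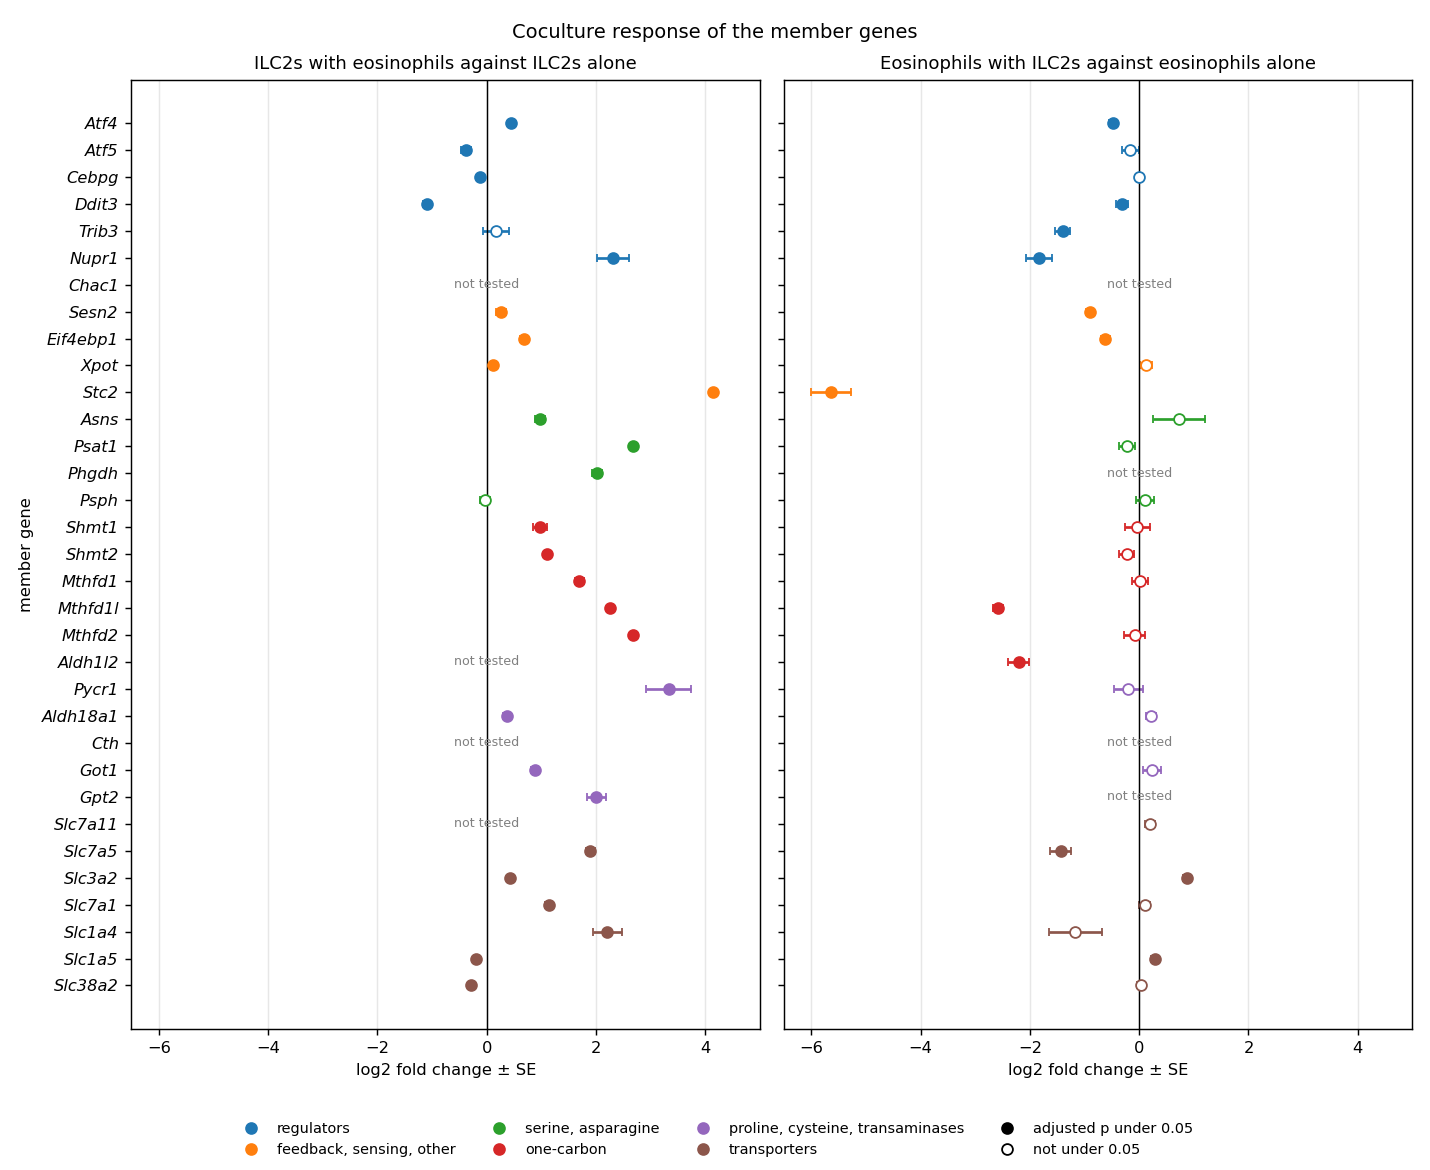
Log2 fold change ± SE of each member in ILC2s with eosinophils against ILC2s alone (left) and in eosinophils with ILC2s against eosinophils alone (right), ordered and coloured by role. Filled points had an edgeR adjusted p under 0.05 and open points did not. Stc2 was at 4.14 on the left and -5.63 on the right, and the serine and one-carbon enzymes with a filled point lay to the right of 0 in the ILC2 panel, while only Mthfd1l and Aldh1l2 of that kind had a filled point in the eosinophil panel.

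The comparison of eosinophils cultured with and without ILC2s asked the converse question. Eosinophils with ILC2s held less RNA of 4 of the 6 regulators (Atf4, Trib3, Nupr1 and, less firmly, Ddit3), of Stc2, Sesn2 and Eif4ebp1, of Mthfd1l and Aldh1l2 and of Slc7a5, and more of Slc3a2 and Slc1a5. Again 29 of the 33 members could be tested, all but Chac1, Cth, Phgdh and Gpt2. Of the 29, 2 were higher (6.90%), where 11.4% of 13109 genes were higher, and 10 were lower (34.5%), where 13.5% of genes were lower. Beyond 2-fold, 6 members were lower, where 4.61% of all genes were, and neither of the 2 higher members passed that size, which 1.15% of all genes did. The median log2 fold change of the 29 was -0.16, and that of all genes tested 0.0044.

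Of the 6 regulators 4 fell and the other two did not pass. Atf4 stood at 300.2, 279 and 292 CPM in eosinophils with ILC2s and 413, 365 and 417 CPM in eosinophils alone. All libraries with ILC2s lay below all libraries alone (-0.48 ± 0.061, edgeR adjusted p = 5.0e-05). Trib3 stood at 5.50, 4.67 and 4.95 CPM with ILC2s and 12.7, 13.2 and 13.1 CPM alone. The groups were well separated (-1.40 ± 0.14, edgeR adjusted p = 4.0e-06). Nupr1 stood at 2.66, 1.41 and 2.67 CPM with ILC2s and 8.28, 8.56 and 6.74 CPM alone. Each library with ILC2s was lower (-1.84 ± 0.24, edgeR adjusted p = 6.4e-05). Ddit3 stood at 27.8, 22.3 and 24.3 CPM with ILC2s and 30.8, 26.8 and 32.8 CPM alone. Its groups overlapped, and although it passed (-0.31 ± 0.10, edgeR adjusted p = 0.0429) it did so neither without replicate 1 or 3 of eosinophils alone nor without replicate 2 or 3 of eosinophils with ILC2s (0.120 to 0.176), nor with library totals (0.0828). Atf5 (-0.16 ± 0.15, edgeR adjusted p = 0.491) and Cebpg (77.5 CPM with ILC2s and 75.9 CPM alone, adjusted p = 0.998) did not pass.

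Stc2 was nearly lost from eosinophils with ILC2s. Its counts were 12, 0 and 7 in eosinophils with ILC2s and 299, 317 and 251 in eosinophils alone, which is 0.741, 0 and 0.398 CPM with ILC2s and 20.0, 19.5 and 15.5 CPM alone. No library with ILC2s reached a value found alone (-5.63 ± 0.36, edgeR adjusted p = 7.0e-08), and the ratio of counts was 0.0201 with a 95% counting interval of 0.0121 to 0.0316. The level left in eosinophils with ILC2s was 0.154% of that in ILC2s with eosinophils. The 6 ILC2 markers there ranged from 0.0441% to 1.85%, with a median of 0.0692%. The top was Il7r, which eosinophils alone held at a like level (mean 4.64 CPM, against 4.41 CPM with ILC2s). The source of the remaining Stc2 RNA was not tested. Sesn2 fell to 47.7 ± 4.35 CPM with ILC2s, against 87.2 ± 5.58 CPM alone (-0.90 ± 0.078, edgeR adjusted p = 1.4e-06). Eif4ebp1 fell to 84.5 ± 5.39 CPM, against 127 ± 16.0 CPM alone (-0.62 ± 0.084, edgeR adjusted p = 8.8e-05). Xpot did not pass (0.12 ± 0.11, edgeR adjusted p = 0.470). Chac1 had 8, 9 and 5 counts with ILC2s and 5, 2 and 3 alone, a ratio of 2.02 with a 95% counting interval of 0.918 to 4.78, too few to be tested.

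Of the 6 one-carbon genes 2 fell in eosinophils, both mitochondrial, and the serine genes were low in both eosinophil groups. Mthfd1l stood at 10.3, 10.5 and 10.5 CPM in eosinophils with ILC2s and 66.8, 60.1 and 56.7 CPM in eosinophils alone. The libraries of each group lay close together and the groups far apart (-2.58 ± 0.093, edgeR adjusted p = 2.3e-10). Aldh1l2 stood at 5.50, 6.46 and 3.58 CPM with ILC2s and 24.0, 26.7 and 19.6 CPM alone. It fell clearly (-2.21 ± 0.19, edgeR adjusted p = 1.0e-06), but it overlaps D10Wsu102e on the opposite strand, which stood at 81.0 ± 3.63 CPM with ILC2s and 193 ± 41.8 CPM alone and also fell (-1.28 ± 0.12), and reads of the overlap cannot be told apart without the strand. Shmt2 (-0.23 ± 0.14), Mthfd2 (-0.08 ± 0.19), Mthfd1 (0.02 ± 0.15) and Shmt1 (-0.03 ± 0.23) did not pass, with edgeR adjusted p of 0.283, 0.811, 0.957 and 0.937 in that order. Without replicate 2 of eosinophils alone, Shmt2 was lower (-0.36, edgeR adjusted p = 0.0497).

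Phgdh had 0, 3 and 0 counts in eosinophils with ILC2s and 9, 7 and 3 in eosinophils alone, a ratio of 0.145 with a 95% counting interval of 0.0275 to 0.493, and was not tested. In eosinophils with ILC2s it stood at 0.160% of the level in ILC2s with eosinophils. Psat1 stood at 6.36, 6.91 and 7.33 CPM with ILC2s and 8.35, 7.88 and 7.24 CPM alone. Its groups overlapped and it was not called (-0.22 ± 0.15, edgeR adjusted p = 0.335). Psph (0.11 ± 0.16) and Asns (0.72 ± 0.48) did not pass either, with adjusted p of 0.679 and 0.318, Asns at 9, 22 and 23 counts with ILC2s and 13, 5 and 11 alone. Pycr1 (-0.20 ± 0.27), Aldh18a1 (0.22 ± 0.09) and Got1 (0.23 ± 0.17) had edgeR adjusted p of 0.647, 0.0943 and 0.367. Of these, Aldh18a1 passed with library totals (0.0382) and in the fit of all 12 libraries (0.0216). Gpt2, with 23 counts with ILC2s and 14 alone, and Cth, with 3 and 4 counts in the same order, were not tested.

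The transporters of eosinophils moved apart from each other. Slc3a2 stood at 408, 394 and 455 CPM in eosinophils with ILC2s and 224, 203 and 245 CPM in eosinophils alone. Each library with ILC2s was above each alone (0.88 ± 0.074, edgeR adjusted p = 1.0e-06), and ILC2s with eosinophils held 19.8% of that level. Slc7a5, the light chain that pairs with it in LAT1, stood at 4.82, 3.04 and 2.96 CPM with ILC2s and 9.35, 9.79 and 9.40 CPM alone. It went the other way, without overlap (-1.44 ± 0.19, edgeR adjusted p = 9.3e-05). Slc7a11, the light chain that pairs with it in xCT, stood at 64.3, 69.5 and 70.9 CPM with ILC2s and 60.1, 65.1 and 49.5 CPM alone. Those groups overlapped and the difference did not pass (0.20 ± 0.10, edgeR adjusted p = 0.161), although it passed without replicate 2 of eosinophils alone (0.29, adjusted p = 0.0153). Slc1a5 rose to 125 ± 2.29 CPM, against 99.6 ± 11.0 CPM alone (0.30 ± 0.074, edgeR adjusted p = 0.00897). Slc38a2 (0.03 ± 0.063), Slc7a1 (0.10 ± 0.10) and Slc1a4 (-1.17 ± 0.49) had adjusted p of 0.806, 0.512 and 0.102 and did not pass.

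Markers listed for other cell types also differed between the eosinophil groups, some lower and some higher with ILC2s. Those of basophils and mast cells summed to 114.3 to 127.3 CPM in eosinophils with ILC2s and 230.3 to 261.9 CPM in eosinophils alone over 7 genes, with 4 of the 7 (Fcer1a, Hdc, Kit and Gata2) lower in every library with ILC2s. Gata2 supplied most of the sum (mean 94.1 CPM with ILC2s and 184 CPM alone). Ms4a2 averaged higher with ILC2s (4.07 CPM, against 3.36 CPM alone), and Cpa3 was alike (1.15 CPM with ILC2s and 1.21 CPM alone). Mcpt8 stayed under 1 CPM in both groups. Monocyte and macrophage markers summed to 2109.8 to 2150.1 CPM with ILC2s and 2261 to 2389.8 CPM alone over 7 genes, with Adgre1 supplying most. Of these, Ly6c2 (mean 23.1 CPM with ILC2s and 49.4 CPM alone), Adgre1 (1627 CPM with ILC2s and 1827 CPM alone) and C1qa were lower in every library with ILC2s, Cd14 and C1qb were higher in every one, and C1qa, C1qb and Ms4a7 were under 1 CPM in both groups. Neutrophil markers summed to 10.3 to 11.5 CPM with ILC2s and 15.6 to 21.4 CPM alone over 7 genes, with Camp at 0 counts in both. Of these, S100a8 and S100a9 were lower in every library with ILC2s, while Ngp averaged 4.76 CPM with ILC2s and 4.42 CPM alone. B cell markers summed to 251.2 to 282.1 CPM with ILC2s and 202.2 to 243.6 CPM alone over 5 genes, with Ms4a1 under 1 CPM in both. Epithelial markers summed to 11.6 to 16.0 CPM with ILC2s and 8.06 to 11.4 CPM alone over 5 genes, with Sftpc at 0 counts in both. T cell markers summed to 2.27 to 4.51 CPM with ILC2s and 4.31 to 6.28 CPM alone over 6 genes, with Cd4 and Cd8a at 0 counts in both. The part of these cells in the members' falls was not tested.

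In both coculture comparisons together, 27 members could be tested, from separate sets of libraries. Of these, 7 were higher in ILC2s with eosinophils and lower in eosinophils with ILC2s (25.9%), where 6.60% of 11963 genes were. They were Atf4, Eif4ebp1, Mthfd1l, Nupr1, Sesn2, Slc7a5 and Stc2. A further 12 were higher in ILC2s and did not pass in eosinophils, where 27.0% of all genes were so, among them the serine and folate genes Psat1, Mthfd2, Mthfd1, Shmt1 and Shmt2. Slc3a2 was higher in both, Ddit3 lower in both, and Slc1a5 lower in ILC2s and higher in eosinophils. Each stands for 3.70% of the 27, where 3.83%, 3.26% and 5.57% of all genes were so, in that order. These shares lay near or below those of all genes, and the Ddit3 call in eosinophils was not firm, as given above.

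The difference between the responses was tested directly over all 12 libraries, as the change of ILC2s minus the change of eosinophils. It was positive and past the test for 19 of 31 members (61.3%), where 26.8% of 15745 genes were, and negative for 4 (12.9%), where 24.8% of genes were. Stc2 differed most, by 9.76 ± 0.25 on the log2 scale (edgeR adjusted p = 1.1e-19), followed by Mthfd1l (4.82 ± 0.11, adjusted p = 1.6e-20). The size of the Stc2 difference is imprecise, since Stc2 had 19 counts in eosinophils with ILC2s. The SE of its eosinophil side alone was 0.36, and leaving out 1 library at a time gave differences of 9.16 to 10.6. Phgdh also differed (4.69 ± 0.77), but its eosinophil side rests on 3 and 19 counts, and without replicate 2 of eosinophils with ILC2s, which held those 3, it was 8.08. Nupr1 (4.13 ± 0.40), Slc7a5 (3.31 ± 0.19), Psat1 (2.87 ± 0.14) and Mthfd2 (2.75 ± 0.19) were among the others, and Atf4 itself differed by 0.91 ± 0.086. The 4 negative members were Ddit3 (-0.80 ± 0.13), Slc1a5 (-0.52 ± 0.092), Slc3a2 (-0.47 ± 0.10) and Slc38a2 (-0.35 ± 0.08). The 8 that did not pass were Atf5, Cebpg, Asns, Psph, Aldh18a1, Slc7a11, Gpt2 and Xpot. Asns rose in ILC2s and not past the test in eosinophils, yet its difference was 0.22 ± 0.41 (adjusted p = 0.700), with few eosinophil counts. Gpt2 (1.43 ± 0.64, adjusted p = 0.0678) passed without replicate 2 of eosinophils alone (1.68, adjusted p = 0.0449), without replicate 3 of eosinophils with ILC2s (2.33, adjusted p = 0.00451), and with DESeq2 (0.0353) and limma-voom (0.0313). With library totals Atf5 (-0.43, adjusted p = 0.0369) and Cebpg (-0.34, adjusted p = 0.00148) passed as negative, and Cebpg also with upper quartile scaling (-0.22, adjusted p = 0.0323).

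**Figure D3:**
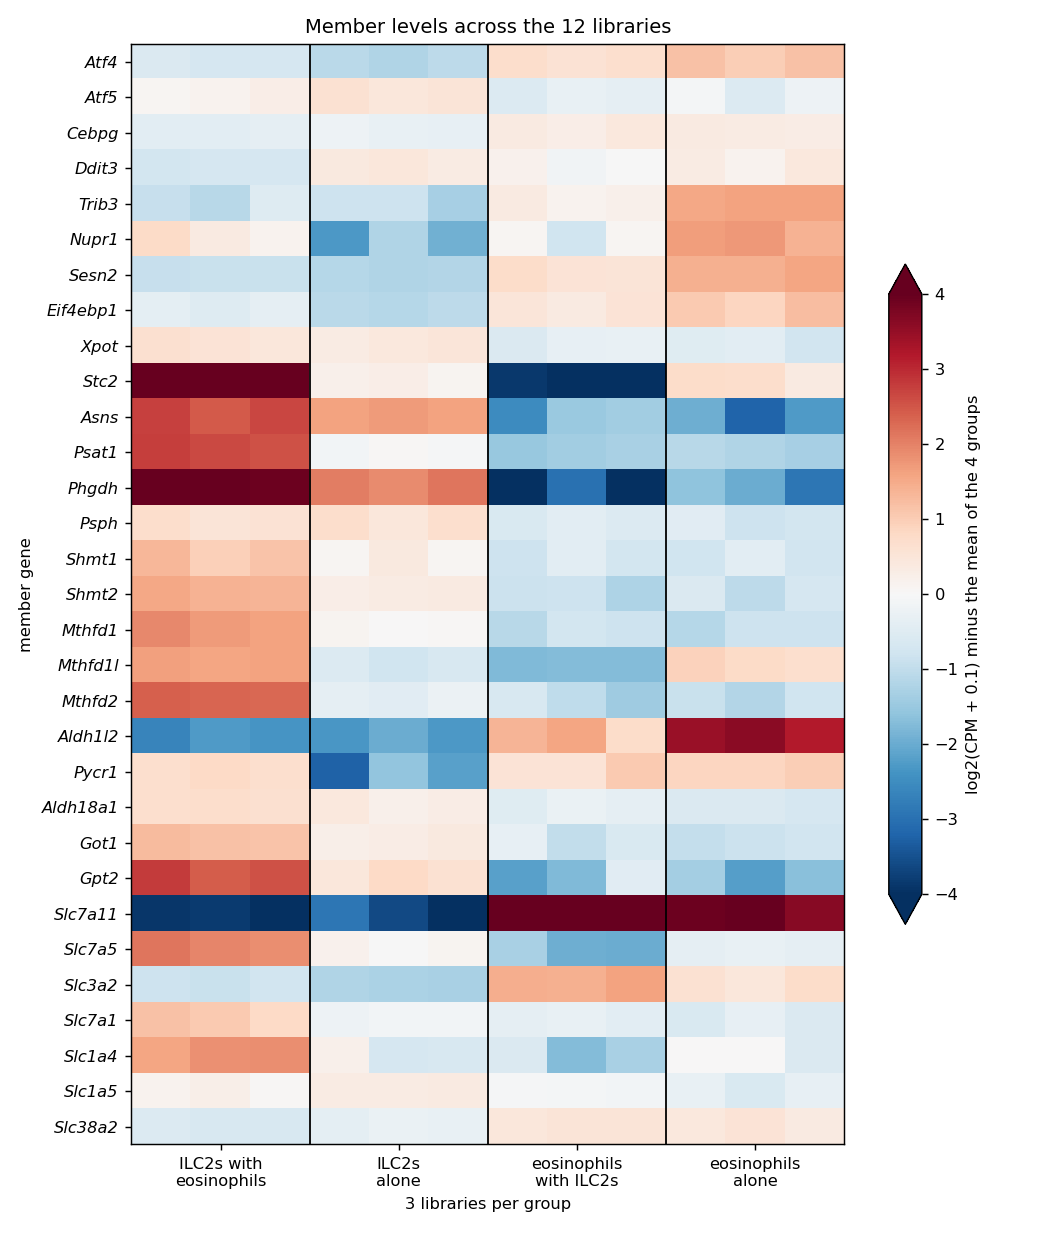
Levels of 31 members (all but Chac1 and Cth) in the 12 libraries, as log2(CPM + 0.1) minus the mean of the 4 group means, with colours limited to 4 on either side. Columns are ILC2s with eosinophils, ILC2s alone, eosinophils with ILC2s and eosinophils alone, 3 libraries each. The regulators and sensors Atf4, Trib3, Sesn2 and Eif4ebp1 are red in eosinophils, most of all in eosinophils alone, and the serine and one-carbon enzymes other than Aldh1l2 are red in ILC2s with eosinophils.

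The cells cultured alone differed in single members in both directions. ILC2s alone held more Asns, Phgdh and Gpt2 RNA, and less Slc7a11, Aldh1l2, Pycr1, Nupr1, Sesn2, Trib3 and Atf4 RNA, than eosinophils alone. The cells also differed in tissue and in the cytokines given earlier, which cannot be told apart from cell type. Of 31 members tested, 16 were higher in ILC2s alone (51.6%), where 40.8% of 14525 genes were, and 13 were lower (41.9%), where 39.9% of genes were, so the shares lay near those of all genes. The 4 serine and asparagine genes were all higher in ILC2s, Asns by 4.23 ± 0.24, Phgdh by 4.41 ± 0.28, Psph by 1.29 ± 0.14 and Psat1 by 1.19 ± 0.12. Of the 6 regulators 4 were lower in ILC2s, Atf4 by -2.20 ± 0.069, Trib3 by -2.63 ± 0.17, Nupr1 by -3.50 ± 0.28 and Cebpg by -0.59 ± 0.064, and Atf5 was higher (0.80 ± 0.13). With library totals Cebpg did not pass (-0.022, edgeR adjusted p = 0.754), which leaves 3. Ddit3 was not called (0.11 ± 0.086, edgeR adjusted p = 0.246), but was higher with library totals (0.68, adjusted p = 3.4e-06) and with upper quartile scaling (0.34, adjusted p = 0.00180). In this comparison the all-gene median shifted by 0.57 under library totals and by 0.23 under upper quartile scaling.

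Sesn2 (-2.64 ± 0.074) and Eif4ebp1 (-2.16 ± 0.083) were lower in ILC2s alone than in eosinophils alone. Slc7a11 separated the cells most, at 0.431, 0.225 and 0.0349 CPM in ILC2s alone and 60.1, 65.1 and 49.5 CPM in eosinophils alone (-8.07 ± 0.25, edgeR adjusted p = 1.9e-13). Its heavy chain Slc3a2 was also lower in ILC2s (-1.85 ± 0.069). Among one-carbon genes Aldh1l2 (-5.93 ± 0.21) and Mthfd1l (-1.43 ± 0.086) were lower in ILC2s, while Shmt2 (1.08 ± 0.11), Mthfd1 (0.99 ± 0.12), Shmt1 (0.85 ± 0.20) and Mthfd2 (0.61 ± 0.13) were higher. Pycr1 was lower in ILC2s (-3.53 ± 0.45). Stc2 was lower by -0.40 ± 0.12, which library totals turned round (0.17, edgeR adjusted p = 0.193) and which did not pass with upper quartile scaling (-0.16, adjusted p = 0.213). Gpt2 (2.67 ± 0.41), Got1 (1.19 ± 0.11), Xpot (0.97 ± 0.09), Aldh18a1 (0.93 ± 0.082), Slc1a5 (0.75 ± 0.071), Slc7a5 (0.44 ± 0.12) and Slc7a1 (0.36 ± 0.093) were higher in ILC2s, Slc38a2 (-0.76 ± 0.066) lower, and Slc1a4 did not pass (adjusted p = 0.708).

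Set against exon length, so that genes could be compared with each other, Atf4 led in 3 of the 4 groups. Its level was 50.1 CPM per kb in ILC2s with eosinophils, 36.4 in ILC2s alone, 123 in eosinophils with ILC2s and 169 in eosinophils alone. Stc2 came next in ILC2s with eosinophils at 47.5 CPM per kb, and it stood at 2.68 in ILC2s alone. In ILC2s alone Slc1a5 led at 39.8 CPM per kb, and Slc3a2 followed Atf4 in eosinophils with ILC2s (119) and in eosinophils alone (63.4). By mean CPM, 17 of the 33 members had their highest group in ILC2s with eosinophils, 4 in ILC2s alone, 5 in eosinophils with ILC2s and 7 in eosinophils alone. The same count was not made over all genes, so it cannot be read as particular to the members.

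Other genes around the programme were followed by 7 lists, read against the same shares of all genes. Of the 20 cytosolic aminoacyl-tRNA synthetases, which charge tRNA with amino acids, 18 were higher in ILC2s with eosinophils, led by p-value by Aars (0.94 ± 0.045), Kars (0.87 ± 0.042) and Gars (0.89 ± 0.047). Vars was lower (-0.16 ± 0.038) and Sars did not pass. In eosinophils with ILC2s 5 were higher and 4 lower, among them Vars (0.76 ± 0.067), Wars (-0.47 ± 0.069) and Dars (-0.39 ± 0.073). Of 18 further folate and one-carbon enzymes 12 were higher and 4 lower in ILC2s, with Ahcy, which clears S-adenosylhomocysteine (2.60 ± 0.047), and Tyms, the thymidylate synthase (2.56 ± 0.072), among those leading. In eosinophils 4 of 16 were higher and 1 lower, with Mat2a (0.44 ± 0.059) and Gart (0.54 ± 0.082) higher and Mthfs lower (-0.39 ± 0.092).

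Enzymes of glutamine, glutamate and branched-chain amino acids had 9 higher and 3 lower of 14 in ILC2s, with Glud1 (1.53 ± 0.039), Oat (1.64 ± 0.062) and Got2 (0.92 ± 0.045) leading, and 2 higher and 2 lower of 13 in eosinophils, with Prodh (0.91 ± 0.075), Bckdha (1.12 ± 0.13) and Bckdhb (-0.66 ± 0.12). In ILC2s Bcat1, the cytosolic branched-chain transaminase singled out after its value was seen, rose by 3.89 ± 0.33. Of 15 genes of eIF2 and its kinases 9 were higher and 1 lower in ILC2s, Eif2s1 (1.04 ± 0.046) and Eif2ak2 (0.96 ± 0.062) being higher and Impact, an inhibitor of the kinase GCN2, lower (-0.88 ± 0.052). In eosinophils 3 were higher and 2 lower, with Ppp1r15a, the stress-induced eIF2 phosphatase subunit, lower (-1.11 ± 0.10) and Eif2ak3 (0.37 ± 0.074) and Eif2b1 (0.37 ± 0.10) higher. Glutathione genes had 6 higher and 2 lower of 11 in ILC2s, with Gpx1 (2.16 ± 0.045) and Txnrd1 (1.11 ± 0.04) higher and Gclc lower (-1.03 ± 0.041). In eosinophils 1 of 10, Gclm (0.39 ± 0.066), was higher and 1, Chac2 (-0.31 ± 0.10), lower, and Txnrd1 did not pass (0.16 ± 0.058).

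The lists of sensing and of other transporters each had 33.3% higher in ILC2s, near the 36.8% of all genes. Their shares lower were 42.9% and 46.7%, in that order, where 35.6% of all genes were lower. Amino acid sensing and mTORC1 genes had 7 higher and 9 lower of 21 in ILC2s, with Castor1, an arginine sensor, higher (1.85 ± 0.048) and Sesn1 (-1.40 ± 0.047) and Tsc1 (-0.65 ± 0.051) lower. In eosinophils 3 were higher and 2 lower of 19, Castor1 (-1.53 ± 0.17) and Ddit4, an inhibitor of mTORC1 (-0.65 ± 0.091), being lower and Sesn1 higher (0.29 ± 0.065). Of the other amino acid transporters 5 were higher and 7 lower of 15 in ILC2s, Slc43a2 (-0.79 ± 0.038) and Slc38a9 (-1.16 ± 0.062) being lower and Slc7a8 higher (0.88 ± 0.048). In eosinophils 5 were higher and 1 lower of 14. Slc7a8, the neutral amino acid exchanger LAT2, which also pairs with the heavy chain of Slc3a2, rose there (1.37 ± 0.067), as did Slc38a1 (0.43 ± 0.061), and Slc7a6, a further light chain of that heavy chain, fell (-1.01 ± 0.12).

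By median log2 fold change in ILC2s, with all genes at 0.0029, the synthetases stood at 0.62, the folate enzymes at 0.60, the glutamine group at 0.51, glutathione at 0.33, eIF2 at 0.25, sensing at -0.0045 and the other transporters at -0.20. In eosinophils, with all genes at 0.0044, the 7 medians lay between -0.048 for glutathione and 0.16 for the other transporters.

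**Figure D4:**
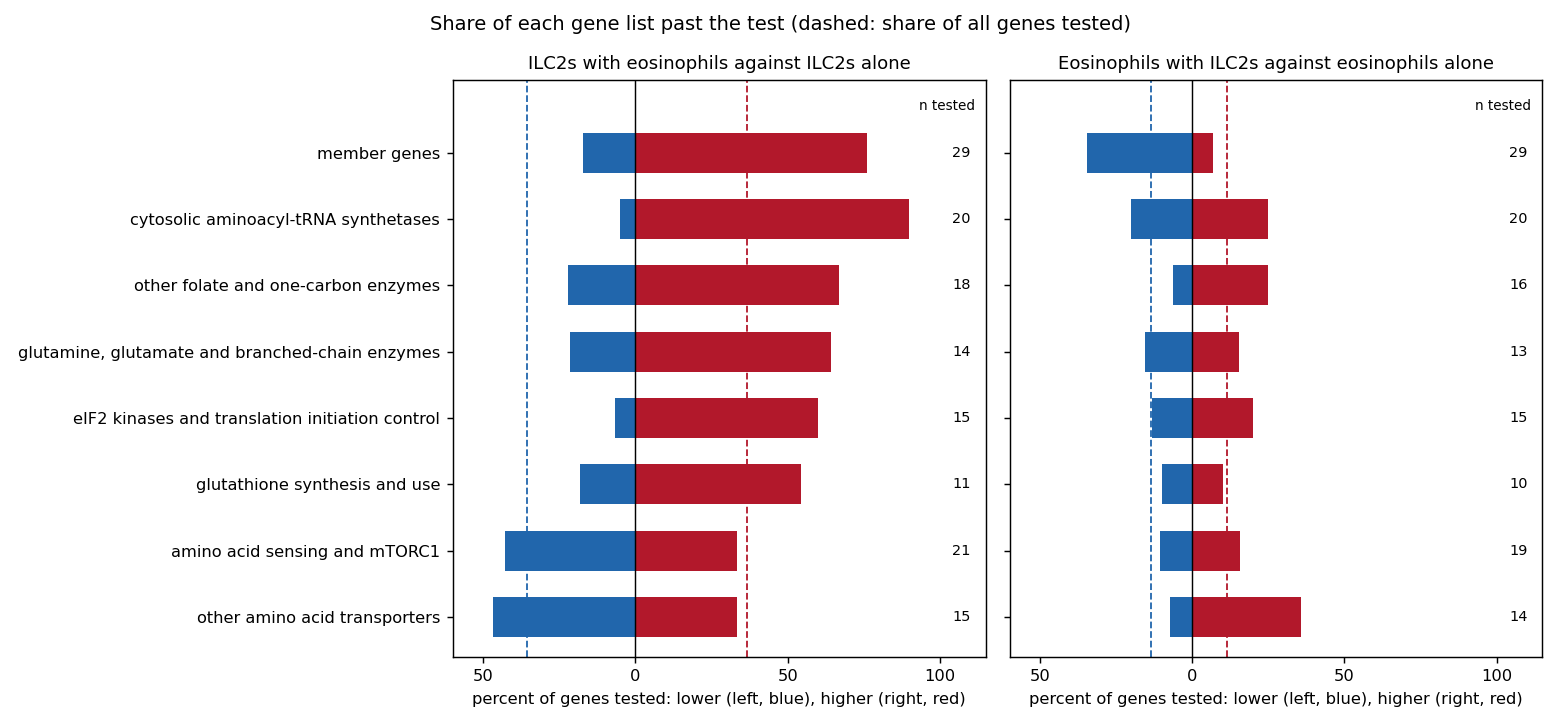
Share of the tested genes of each list that were higher (right, red) or lower (left, blue) at an edgeR adjusted p under 0.05, in ILC2s with eosinophils against ILC2s alone and in eosinophils with ILC2s against eosinophils alone. Dashed lines give the shares of all genes tested, and the numbers at the right are the genes tested. The aminoacyl-tRNA synthetases (90.0%) and the members (75.9%) had the largest shares higher in ILC2s, and the members had the largest share lower in eosinophils (34.5%).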

How the data were processed

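RNA was measured by sequencing in 12 libraries, 3 per group. The authors deposited raw read counts per gene, whole numbers without normalization. Per the submitters' processing notes, the tools were bcl2fastq 2.17, Trimmomatic 0.36, STAR 2.5.2b, featureCounts and Subread 1.5.2, on build mm10. Of the annotation release, strand setting and multiply mapped reads nothing is given in the sources used here. GENCODE M21, on the same build, paired 48970 of 49315 identifiers with symbols and gave positions and exon lengths.

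Each comparison was fitted over the whole table in edgeR 4.0.16 (R 4.3.3) with filterByExpr, TMM and its quasi-likelihood F test. No covariate was used, and each fit took the 6 libraries concerned or, for the difference of responses, all 12. The standard error was the log2 fold change divided by the square root of F. The call threshold was 0.05 on the Benjamini-Hochberg adjusted p. CPM was scaled by TMM over all 12 libraries. Intervals of count ratios are exact and cover counting error only. Replicates were not duplicates (chi-square per degree of freedom 2.57 to 19.5).

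The members and lists were chosen with earlier results of these data known. Values of every library are given for a fixed set (Atf4, Ddit3, Asns, Psat1, Phgdh, Slc7a11, Slc7a5, Slc3a2, Chac1 and Trib3) and for up to 10 called members beyond 2-fold per coculture comparison, and up to 3 genes per list and coculture comparison by smallest p, of which 1 is not reported here. Alternatives were other scalings, DESeq2 1.42.0, limma-voom 3.58.1, other filters, the replicate block, all 12 libraries, and leaving out each library. The fits were tested on simulated data.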

Additional observations from a re-analysis of the deposited data

Results flagged for a closer look

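For 23 of the 31 members tested over all 12 libraries, the response of ILC2s to eosinophils and that of eosinophils to ILC2s differed by edgeR's interaction test at an adjusted p under 0.05. Values are the log2 fold change of ILC2s minus that of eosinophils. Stc2 had the largest at 9.76, followed by Mthfd1l at 4.82, Phgdh at 4.69 and Nupr1 at 4.13. The fitted values of Stc2 and Phgdh rest on 19 and 3 counts in eosinophils with ILC2s and depend on how such low counts are handled. Without replicate 2 of eosinophils with ILC2s the value of Phgdh was 8.08, and over the 12 libraries left out in turn it lay between 4.14 and 8.08, so its place in that order is not fixed. Pycr1 differed by 3.51, Slc1a4 by 3.35 and Slc7a5 by 3.31. Low counts also enter here, as Pycr1 had 15 counts in ILC2s alone. Slc1a4 had 20 counts in eosinophils with ILC2s and 41 in eosinophils alone. Further enzymes of serine and one-carbon metabolism differed by 2.87 (Psat1), 2.75 (Mthfd2), 1.91 (Aldh1l2), 1.66 (Mthfd1), 1.32 (Shmt2) and 0.99 (Shmt1). The ILC2 side of Aldh1l2 rests on 22 counts with eosinophils and 27 alone, and in eosinophils the overlapping D10Wsu102e fell too. Regulators and sensors differed by 1.55 (Trib3), 1.27 (Eif4ebp1), 1.14 (Sesn2) and 0.91 (Atf4), and Slc7a1 and Got1 by 1.01 and 0.64. The members with a lower response in ILC2s were Ddit3 (-0.80), Slc1a5 (-0.52), Slc3a2 (-0.47) and Slc38a2 (-0.35). Slc3a2 rose in both cells, and its difference is one of size.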

How the results depend on the processing

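The counts of called members stayed within 1.5 times their reported values under every alternative run. Members higher and lower in ILC2s with eosinophils numbered 20 to 23 and 4 to 5, in eosinophils with ILC2s 2 to 3 and 9 to 11, in ILC2s alone against eosinophils alone 16 to 17 and 11 to 13, and for the difference of responses 19 to 20 and 4 to 6. Of 1389 alternative values of called members 1363 kept their call and sign, 24 no longer passed and 2 took the other sign, and of 443 values of members not called 14 passed and 30 took the other sign. With library totals Xpot in ILC2s was at -0.033, Cebpg and Shmt1 in eosinophils at 0.055 and 0.022, Slc1a4 and Stc2 between cells alone at 0.39 and 0.17, and Aldh18a1 in the difference at -0.072. Slc1a4 was at 0.060 with upper quartile scaling. Cebpg in eosinophils was at 0.011 without a filter and 0.029 with all 12 libraries. The cause was not tested.

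Leaving out 1 library at a time turned the sign of these uncalled members over the ranges given. In ILC2s these were Psph (-0.11 to 0.016) and Trib3 (-0.024 to 0.31). In eosinophils they were Cebpg (-0.028 to 0.042), Mthfd1 (-0.082 to 0.12), Shmt1 (-0.17 to 0.11), Slc38a2 (-0.017 to 0.083) and Mthfd2 (-0.29 to 0.095). Between cells alone it was Slc1a4 (-0.53 to 0.0072), and in the difference Xpot (-0.11 to 0.073) and Asns (-0.093 to 0.54).

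The labels do not say whether shared replicate numbers pair the libraries. Deviations from group means correlated at -0.018 to 0.097 between libraries of the same number and at -0.087 to 0.066 between those of different numbers. With 3 libraries per group these values cannot settle the question. With the replicate block the counts of members higher and lower were 22 and 5 in ILC2s, 3 and 10 in eosinophils, 16 and 13 between cells alone, and 19 and 4 in the difference. The added call was Slc7a11 in eosinophils (0.21, edgeR adjusted p = 0.0485).

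Depth limits Chac1 and Cth in all groups, Slc7a11 and Aldh1l2 in ILC2s, and Pycr1 in ILC2s alone. It also limits Phgdh, Gpt2, Asns and Slc1a4 in eosinophils, and Stc2 in eosinophils with ILC2s. In each of these cases a few counts decide the value. Each group held 3 libraries, and the strand setting and the origin of the replicates are not known.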
